A study of Mus musculus with 6 samples.

Results

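The genes described here encode enzymes and inhibitors that cut or crosslink the extracellular matrix, together with the thrombospondins that sit in it. They were chosen by name as the protein-coding mouse genes of the matrix metalloproteinases (Mmp), their tissue inhibitors (Timp1 to Timp4), the Adamts proteases with the related Adamtsl proteins, the lysyl oxidases (Lox and Loxl1 to Loxl4) and the thrombospondins Thbs1 to Thbs4. The rule took 59 of the 43629 mouse gene IDs in the count table, in families of 22 Mmp, 4 Timp, 19 Adamts, 5 Adamtsl, 5 Lox and 4 Thbs genes. Mmp1a matched the name but is annotated as a pseudogene and was left out. Of the 59 members, 27 had enough reads to be tested.

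The cells were the mouse neuroblastoma line M1, from which poly-A RNA of 3 samples labelled shIGF2BP1 and 3 labelled shNT was read. All were grown in serum-containing medium and given doxycycline (4 to 6 µg/ml) for 6 days to switch on a short hairpin RNA, directed at Igf2bp1 in the first group (genotype label: IGF2BP1 knockdown) and non-targeting in the second (genotype label: WT). The labels do not say whether replicates were separate cultures, so the spread behind each p-value may be technical only. Igf2bp1 itself had 67, 35 and 311 counts in the libraries labelled shIGF2BP1 and 37, 175 and 201 counts in the shNT libraries. No loss of the target's RNA was therefore seen, on an imprecise estimate (edgeR log2 fold change 0.25 ± 0.79 SE, adjusted p = 0.966). Totals ran from 25119655 to 35373076 counts per library. Of 10 sympathetic and neuroblastoma markers, Th and Dbh were among those with 0 counts in every library, whereas Hand2 averaged 439 ± 15.6 and 333 ± 127 CPM and Isl1 23.5 ± 2.55 and 28.5 ± 6.92 CPM in shIGF2BP1 and shNT libraries (SD, n = 3 each). CPM is the read count scaled to the library total after TMM adjustment. The summed level of 10 macrophage and leukocyte markers was 4.63 to 6.38 CPM in shIGF2BP1 libraries and 8.29 to 15.6 CPM in shNT libraries, with Adgre1, Tyrobp and Cd3e at 0 counts. Cd68 carried most of that sum, with 4.12 ± 1.28 CPM in shIGF2BP1 and 11.9 ± 3.6 CPM in shNT libraries, while Fcer1g lay the other way on few counts, 10, 20 and 10 in shIGF2BP1 and 0, 6 and 1 in shNT libraries. Summed fibroblast markers spanned 583 to 1102 CPM in shIGF2BP1 and 640.3 to 959.9 CPM in shNT libraries, endothelial markers 31.7 to 74.1 and 37.6 to 54.7 CPM, and Schwann cell markers 6.96 to 13.9 and 12.5 to 14.2 CPM. Single markers within these sums did not move together. At an unadjusted edgeR p under 0.05, 3.17% of all genes were higher and 3.99% lower in shIGF2BP1 libraries. At that p, Postn was higher and Pdgfra and Pdgfrb lower of 7 tested fibroblast markers, and Kdr was lower of 3 tested endothelial markers. Fcer1g was higher and Cd68 lower of 3 tested macrophage and leukocyte markers, and 0 of 3 tested Schwann markers differed. The part of such cells in the results below was not tested. Not all libraries grouped by label in a chi-square comparison of raw counts, which also grows with depth. It was 46.8 to 128 per gene between pairs of shIGF2BP1 libraries and 163 to 251 between pairs of shNT libraries. Across the groups it was 82.8 to 227. Each shIGF2BP1 library was closest to another shIGF2BP1 library, whereas each shNT library was closest to a shIGF2BP1 library.

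Matrix metalloproteinases are zinc enzymes made as inactive precursors, and most are secreted, while the membrane types stay on the cell surface. Timp proteins bind their active sites and block them. Timp2 also bridges Mmp14 and the Mmp2 precursor at the cell surface, a complex through which Mmp14 activates Mmp2. Adamts enzymes carry thrombospondin repeats and cut proteoglycans or procollagen ends, the Adamtsl proteins have the repeats without a protease domain, and lysyl oxidases crosslink collagen and elastin. Thrombospondins bind matrix and cell-surface receptors, and Thbs1 and Thbs2 are known as inhibitors of blood vessel growth.

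A small set of genes carried most of this RNA. Levels were compared between genes as CPM per kilobase of exon. Timp2 (ENSMUSG00000017466, chromosome 11 from 118301069 to 118355740 on the minus strand, GRCm38) stood highest, with a mean of 133 in shIGF2BP1 and 121 in shNT libraries. Mmp2 (ENSMUSG00000031740, gelatinase A, which cleaves denatured and basement membrane collagen) followed at 104 in shIGF2BP1 and 121 in shNT libraries, and Timp1 had 58.7 in shIGF2BP1 and 86.2 in shNT libraries. Timp2, Mmp2 and Timp1 held 59.1% of the length-adjusted sum over the 27 tested members, and each lay above the 95th percentile of all 13445 genes tested. Mmp11 came next at 30.1 and 45.9 CPM per kilobase in shIGF2BP1 and shNT libraries, then Thbs1 (26.4 and 33.7) and Thbs3 (25.3 and 30.3). Mmp14 had 17.4 in shIGF2BP1 and 22 in shNT libraries. The genes of the Mmp14, Timp2 and Mmp2 complex were therefore all present in both groups. With the longest transcript in place of all exons as the length, the first 4 kept their order and Mmp14 moved ahead of Thbs1 and Thbs3.

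**Figure D1:**
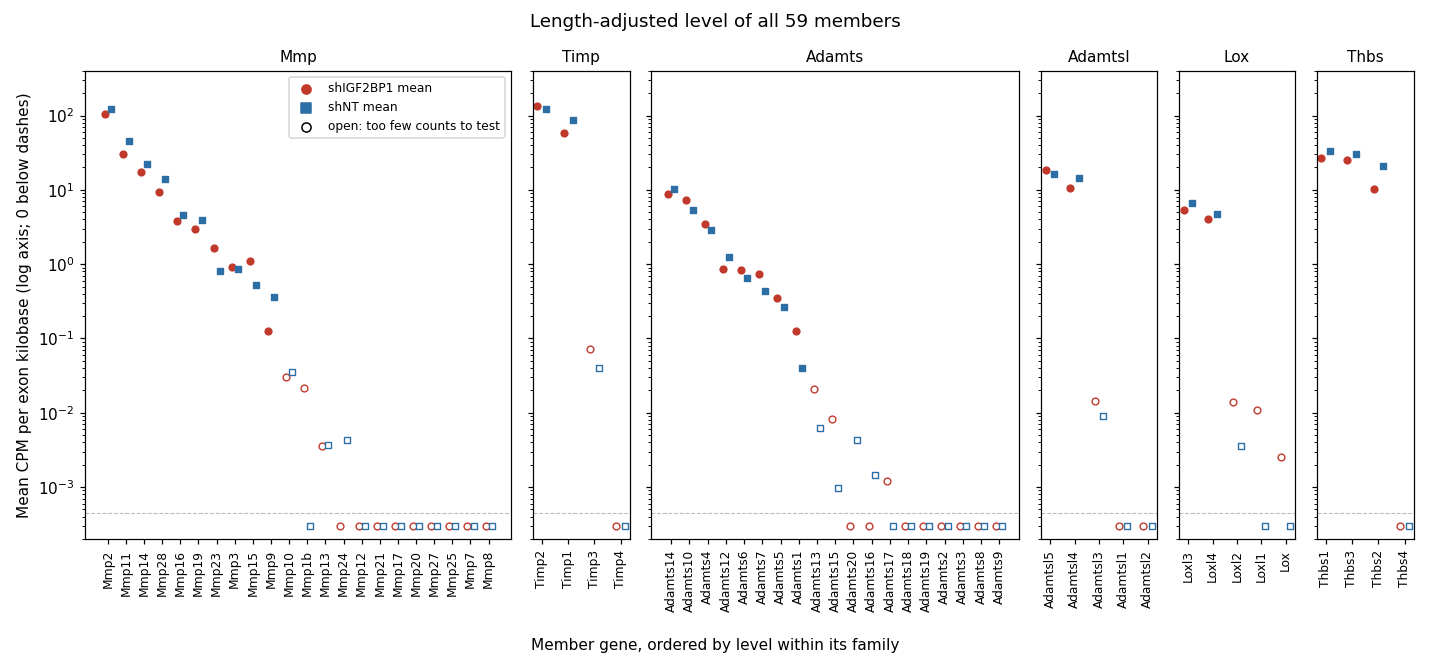
Mean CPM per exon kilobase (vertical log axis) of all 59 members, with 1 panel per family; red circles are means of the 3 shIGF2BP1 libraries, blue squares means of the 3 shNT libraries, and open symbols mark genes with too few counts to test. Timp2 at 133 and 121 and Mmp2 at 104 and 121 stand at the top in shIGF2BP1 and shNT, and the 18 genes with 0 counts everywhere lie below the dashed line.

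The other 32 members were too low to test. Of these, 18 had 0 counts in all 6 libraries, which allows a level of up to 0.0162 CPM over the 6 libraries together (counting error only). They were Mmp7, Mmp8, Mmp12, Mmp17, Mmp20, Mmp21, Mmp25 and Mmp27, Timp4, Adamts2, Adamts3, Adamts8, Adamts9, Adamts18 and Adamts19, Adamtsl1 and Adamtsl2, and Thbs4. A further 13 had between 1 and 16 counts over all libraries, namely Lox, Adamts16 and Adamts17 with 1 each, Mmp13 and Mmp24 with 2 each, Loxl1 and Mmp1b with 3 each, Adamts20 with 4, Loxl2 and Adamts15 with 9 each, Mmp10 with 11, Adamts13 with 12 and Adamtsl3 with 16. Timp3, the inhibitor that stays bound to matrix, had 7, 6 and 37 counts in shIGF2BP1 and 1, 2 and 29 counts in shNT libraries. Its counts were highest in replicate 3 of each group, and the groups overlapped.

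A cluster of neighbouring Mmp genes was nearly silent in both groups. It holds 9 members on chromosome 9, from 7272514 to 7699585 in GRCm38, among them the collagenases Mmp8, Mmp13 and Mmp1b, the stromelysins Mmp3 and Mmp10, the macrophage elastase Mmp12 and the matrilysin Mmp7. Mmp3 held 297 of the cluster's 313 counts, and no other gene of the cluster had more than 4 counts in a library. Mmp3 and Mmp10, and Mmp1a and Mmp1b, are related in sequence, so the split of their few counts is uncertain. Genes of this cluster are known for promoters with a TATA box and a site for AP-1, the Fos and Jun transcription factor. RefSeq promoter windows on GRCm38.p6 were found for 39 of the 59 members, 16 of them tested, and the 250 bases before the start were searched on both strands for 4 motifs. The AP-1 motif was TGACTCA, the motif of the TATA box was TATAAA, the motif of the GC box was GGGCGG and the last was CCAAT. The AP-1 letters stood in 6 of the 9 windows of cluster genes and 0 of 8 windows of other Mmp genes, against 4.46% of all 32851 windows. TATAAA stood in 6 of 9 cluster windows and 1 of 8 other Mmp windows, against 12.4% of all windows. GGGCGG stood in 0 of 9 cluster windows and 6 of 8 other Mmp windows, against 32.7% of all windows, and CCAAT in 2 of 9 and 1 of 8, against 33.8%. A match is a description of letters and not a bound site.

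The 150 bases before the start are printed for 3 cluster genes with 297 (Mmp3), 11 (Mmp10) and 2 counts (Mmp13) over all libraries, then for the expressed Mmp14, and then for the members on which the comparison of groups turns, Mmp15 and Thbs2, with Thbs3 as a paralog of Thbs2. They lie at chr9:7445672-7445821 (Mmp3), chr9:7502192-7502341 (Mmp10), chr9:7272364-7272513 (Mmp13), chr14:54431448-54431597 (Mmp14), chr8:95352146-95352295 (Mmp15) and chr3:89215030-89215179 (Thbs3) on the plus strand, and at chr17:14694263-14694412 (Thbs2) on the minus strand. Capitals mark the AP-1 and TATA letters in Mmp3, Mmp10 and Mmp13, the TATA and CCAAT letters in Thbs2, and the GC box and CCAAT letters in Mmp14, Mmp15 and Thbs3, on either strand. In Mmp14 a GC box shares a base with a CCAAT match on the other strand.
Mmp3: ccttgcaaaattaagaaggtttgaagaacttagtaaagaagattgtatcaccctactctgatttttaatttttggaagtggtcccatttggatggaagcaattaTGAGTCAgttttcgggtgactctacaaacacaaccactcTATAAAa
Mmp10: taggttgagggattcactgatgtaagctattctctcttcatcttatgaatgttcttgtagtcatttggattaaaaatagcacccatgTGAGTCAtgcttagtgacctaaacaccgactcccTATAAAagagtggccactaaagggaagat
Mmp13: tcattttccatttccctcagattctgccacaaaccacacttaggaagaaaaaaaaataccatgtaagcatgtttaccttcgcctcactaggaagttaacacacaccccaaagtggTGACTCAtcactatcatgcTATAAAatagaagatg
Mmp14: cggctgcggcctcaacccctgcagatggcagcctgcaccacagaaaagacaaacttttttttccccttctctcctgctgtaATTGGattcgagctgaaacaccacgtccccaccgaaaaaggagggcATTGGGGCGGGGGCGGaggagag
Mmp15: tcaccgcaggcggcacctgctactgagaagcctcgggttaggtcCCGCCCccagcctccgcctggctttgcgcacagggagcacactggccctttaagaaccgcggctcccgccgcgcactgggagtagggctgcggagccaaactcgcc
Thbs2: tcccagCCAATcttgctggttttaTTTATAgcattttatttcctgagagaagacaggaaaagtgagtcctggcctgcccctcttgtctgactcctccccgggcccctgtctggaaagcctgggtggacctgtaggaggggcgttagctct
Thbs3: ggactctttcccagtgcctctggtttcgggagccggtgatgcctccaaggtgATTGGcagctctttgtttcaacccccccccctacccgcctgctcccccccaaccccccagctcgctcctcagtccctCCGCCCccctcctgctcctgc

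The AP-1 letters began 46 bases before the start in Mmp3, 63 in Mmp10 and 35 in Mmp13. In Thbs2 the TATA letters stood on the other strand, 126 bases before the start, and no AP-1 letters were found. Mmp15 held a GC box 106 bases before the start and no match to the other 3 motifs.

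Between the groups, Thbs2 was lower and Mmp15 higher in the libraries labelled shIGF2BP1 at an unadjusted p under 0.05, and no member passed the test over all genes. Thbs2 had 0.491 times the shNT level (edgeR adjusted p = 0.301) and Mmp15 2.11 times (edgeR adjusted p = 0.653). EdgeR's quasi-likelihood test with Benjamini-Hochberg adjustment over 13445 genes called 0 of 27 tested members at an adjusted p under 0.05, against 0.0223% of all genes tested. DESeq2 called 1, Thbs2 (DESeq2 adjusted p = 0.0159), against 82 of all 13445 genes, and limma-voom 0, against 1 of all genes. At an unadjusted p under 0.05, 2 of 27 members (7.41%) stood against 7.16% of all genes, so the members' share was near the background in this fit. The groups did not overlap in 3 members (11.1%), Thbs2 and Loxl3 lower and Mmp15 higher in shIGF2BP1 libraries, against 11.6% of all genes (5.59% lower and 6.06% higher). The log2 fold change was below 0 in 16 of 27 members (59.3%), against 51.5% of all genes, with a median of -0.23 over the members and -0.01 over all genes. The 95% interval lay within 1 log2 unit on either side of 0 for 10 members, so for the other 17 the interval takes in a 2-fold difference in at least 1 direction.

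**Figure D2:**
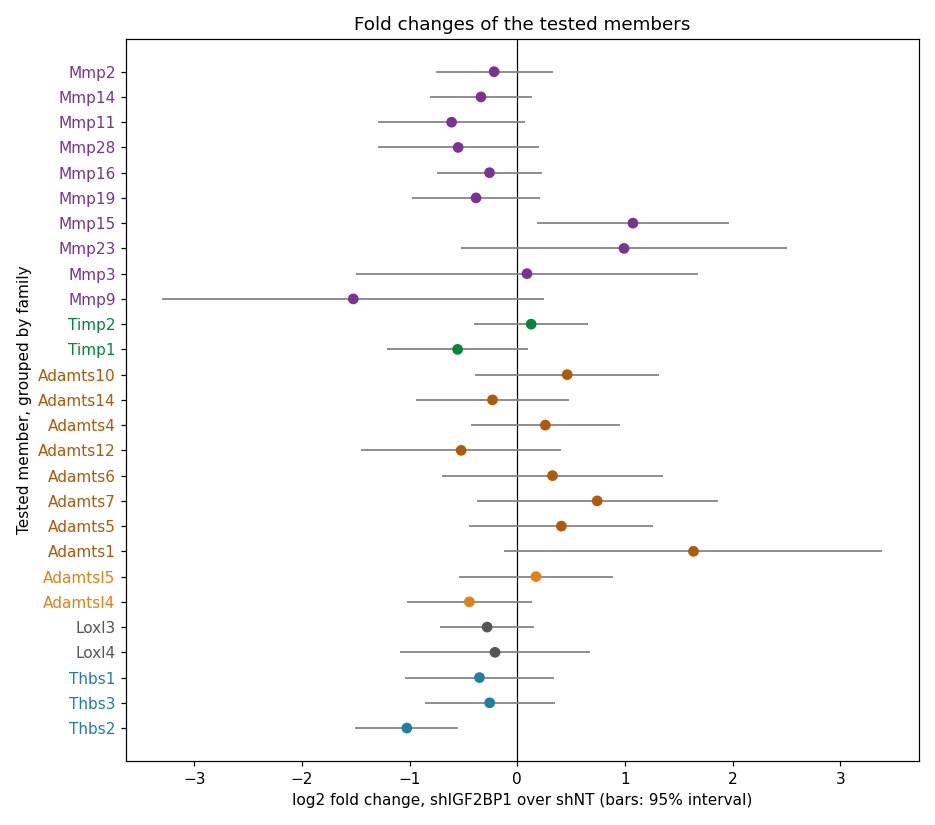
Log2 fold change (horizontal axis, shIGF2BP1 over shNT) of the 27 tested members, grouped and coloured by family, with 95% intervals from edgeR. The interval lies below 0 for Thbs2, from -1.50 to -0.55, above 0 for Mmp15, from 0.18 to 1.97, and includes 0 for the other members.

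Of the thrombospondins, Thbs2 (ENSMUSG00000023885, chromosome 17 from 14665500 to 14694235 on the minus strand, GRCm38) differed most clearly. Thbs2 had 56.3, 67.5 and 90.3 CPM in the libraries labelled shIGF2BP1, against 159, 137 and 139.9 CPM in shNT libraries. All 3 shIGF2BP1 libraries lay below all 3 shNT libraries, by more than the range within either group. The log2 fold change was -1.03 ± 0.22 (SE; edgeR p = 0.000648, adjusted p = 0.301; two-sided exact permutation p = 0.1). That permutation p, on mean log2 CPM, is the smallest that 3 against 3 libraries can give. In bulk RNA, fewer cells that make Thbs2 and less Thbs2 RNA per cell cannot be told apart. Thbs1, an activator of latent TGF-beta, had 140.3, 222 and 119 CPM in shIGF2BP1 libraries and 195, 131 and 288 CPM in shNT libraries. Thbs3, best known from cartilage and bone, had 109.9, 170.4 and 86.1 CPM in shIGF2BP1 libraries and 159, 169 and 109.98 CPM in shNT libraries. Both pairs of groups overlapped, with log2 fold changes of -0.35 ± 0.31 for Thbs1 (edgeR adjusted p = 0.876) and -0.26 ± 0.27 for Thbs3 (edgeR adjusted p = 0.898). Whether Thbs2 differed from its paralogs was examined through ratios within each library, chosen after the values were seen. The length-adjusted ratio of Thbs2 to Thbs1 was 0.348, 0.263 and 0.658 in shIGF2BP1 libraries and 0.706, 0.907 and 0.421 in shNT libraries. That of Thbs2 to Thbs3 was 0.353, 0.273 and 0.722 in shIGF2BP1 libraries and 0.688, 0.559 and 0.876 in shNT libraries. These ratios overlapped between groups (two-sided exact permutation p = 0.2 and 0.3, each adjusted p = 0.36 over 6 ratios). The mean log2 ratios differed by -0.72 (to Thbs1) and -0.76 (to Thbs3), shIGF2BP1 minus shNT. With a smallest possible p of 0.1, this test cannot decide whether Thbs2 changed apart from Thbs1 and Thbs3.

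**Figure D3:**
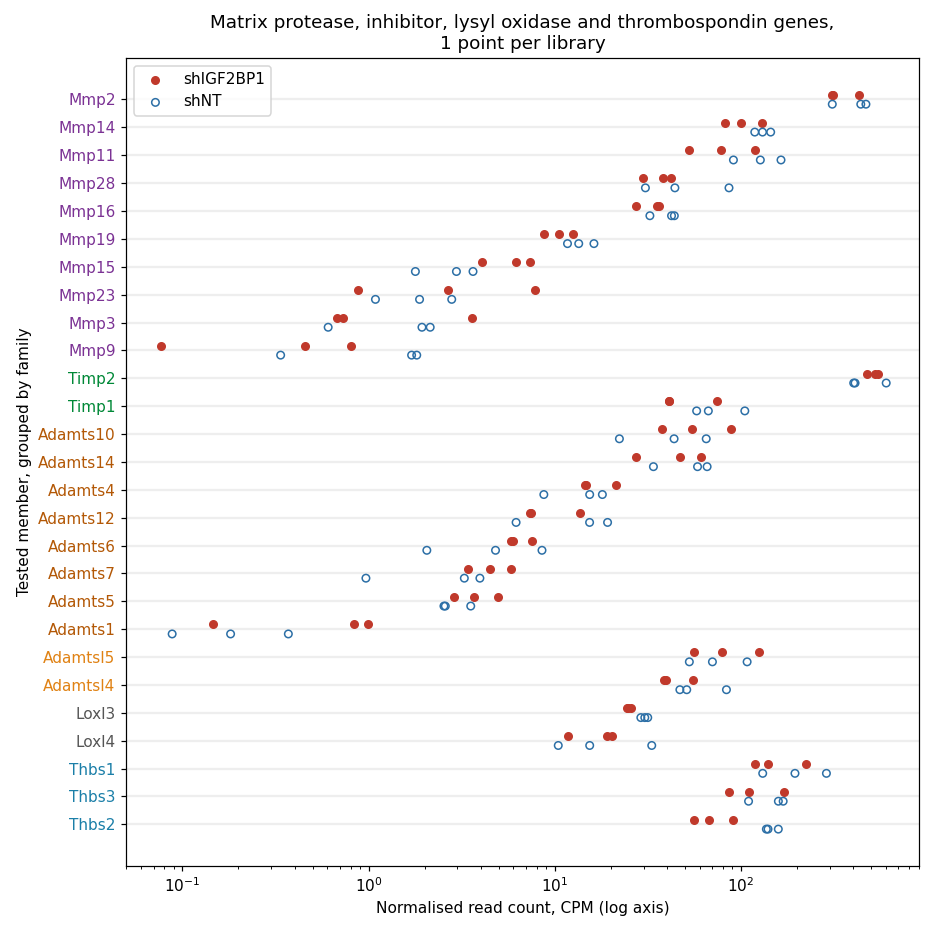
Normalised read count in CPM (horizontal log axis) of each tested member, with 1 point per library; filled red points are shIGF2BP1 libraries and open blue points shNT libraries. Thbs2 at the foot of the plot shows shIGF2BP1 points from 56.3 to 90.3 left of shNT points from 137 to 159, while most other rows overlap.

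Among the membrane-type metalloproteinases the 3 expressed genes did not share a direction. Mmp15 (ENSMUSG00000031790, chromosome 8 from 95352268 to 95375080 on the plus strand), a transmembrane enzyme related to Mmp14, had 7.36, 6.21 and 4.08 CPM in shIGF2BP1 libraries and 3.64, 2.96 and 1.78 CPM in shNT libraries. The groups did not overlap, but the lowest shIGF2BP1 library stood only slightly above the highest shNT library. Its log2 fold change was 1.07 ± 0.41 (SE; edgeR p = 0.0229, adjusted p = 0.653; two-sided exact permutation p = 0.1). Mmp14, the main cell-surface collagenase, had 82.3, 129 and 100.3 CPM in shIGF2BP1 libraries and 145, 119 and 131 CPM in shNT libraries. Mmp16, a further transmembrane type, had 36.5, 27.3 and 35.5 CPM in shIGF2BP1 libraries and 32.5, 42.4 and 43.9 CPM in shNT libraries. Both overlapped, at log2 fold changes of -0.34 ± 0.21 (Mmp14, edgeR adjusted p = 0.796) and -0.26 ± 0.22 (Mmp16, edgeR adjusted p = 0.871). The length-adjusted ratio of Mmp15 to Mmp14 was 0.0988, 0.0531 and 0.045 in shIGF2BP1 libraries and 0.0278, 0.0276 and 0.0151 in shNT libraries. This ratio did not overlap between groups (two-sided exact permutation p = 0.1, the smallest possible, and adjusted p = 0.36 over 6 ratios). The ratio was not planned and reuses the Mmp15 values, which did not overlap on their own, so it is no separate support for a difference. Mmp15 stayed far the rarer of the pair in every library.

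The gelatinases differed widely in level. Mmp2 had 313, 429 and 309 CPM in shIGF2BP1 libraries and 469.7, 441 and 309.8 CPM in shNT libraries, with shIGF2BP1 replicates 1 and 2 inside the shNT range. Its log2 fold change was -0.22 ± 0.25 (edgeR adjusted p = 0.907), and the interval from -0.76 to 0.33 leaves room for a moderate difference in either direction. Mmp9, the second gelatinase, had 0.0763, 0.454 and 0.802 CPM in shIGF2BP1 libraries and 0.337, 1.70 and 1.81 CPM in shNT libraries. At 2, 16 and 22 counts in shIGF2BP1 and 10, 58 and 60 counts in shNT libraries its log2 fold change of -1.52 ± 0.80 was imprecise (edgeR adjusted p = 0.755), and the groups overlapped.

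Mmp11, Mmp23 and Mmp28 belong to the metalloproteinases that the convertase furin activates inside the cell. Mmp11 (stromelysin 3) had 52.3, 119.8 and 78.6 CPM in shIGF2BP1 libraries and 127, 91.2 and 164 CPM in shNT libraries. Mmp28 (epilysin) had 29.9, 42.1 and 38.2 CPM in shIGF2BP1 libraries and 44.2, 30.7 and 86.3 CPM in shNT libraries. In both genes shNT replicate 3 was the highest library, and the groups overlapped (log2 fold changes -0.61 ± 0.31 and -0.55 ± 0.34, edgeR adjusted p = 0.75 and 0.794). Mmp23 ran from 0.875 to 7.86 CPM in shIGF2BP1 and from 1.09 to 2.8 CPM in shNT libraries, its top value coming from shIGF2BP1 replicate 2. Mmp19, a secreted enzyme outside these classes, had 10.5, 8.77 and 12.5 CPM in shIGF2BP1 libraries and 16.2, 11.7 and 13.5 CPM in shNT libraries (log2 fold change -0.38 ± 0.27, edgeR adjusted p = 0.831). Mmp3 ran from 0.681 to 3.61 CPM in shIGF2BP1 and from 0.607 to 2.14 CPM in shNT libraries. Over the family, 7 of 10 tested Mmp genes had a log2 fold change below 0, with a median of -0.30.

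The inhibitors were among the most abundant members and did not differ beyond the spread between libraries. Timp2, the partner of Mmp14 and Mmp2, had 528, 547 and 475 CPM in shIGF2BP1 libraries and 604, 411 and 404 CPM in shNT libraries. Timp1, which inhibits most secreted metalloproteinases, had 41.3, 41.2 and 74.1 CPM in shIGF2BP1 libraries and 57.9, 66.9 and 105 CPM in shNT libraries. Replicate 3 was the highest for Timp1 in each group, and the groups overlapped for both genes. The log2 fold changes were 0.13 ± 0.24 for Timp2 (edgeR adjusted p = 0.942) and -0.55 ± 0.30 for Timp1 (edgeR adjusted p = 0.76). With the replicate number as a block, Timp1 had an edgeR p of 0.0141 (adjusted p = 0.429), but whether these numbers pair the samples is not known. The length-adjusted ratio of Timp2 to Mmp2 was 1.46, 1.10 and 1.33 in shIGF2BP1 libraries and 1.11, 0.806 and 1.13 in shNT libraries (two-sided exact permutation p = 0.3, adjusted p = 0.36 over 6 ratios). That of Timp1 to Timp2 was 0.343, 0.33 and 0.684 in shIGF2BP1 libraries and 0.421, 0.715 and 1.14 in shNT libraries (p = 0.2 by the same exact test, adjusted p = 0.36). That of Mmp14 to Mmp2 ran from 0.149 to 0.184 in shIGF2BP1 libraries and from 0.152 to 0.239 in shNT libraries (exact p = 0.6, adjusted p = 0.6). The ratios within this complex therefore overlapped between groups.

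In the Adamts family 8 of 19 genes were tested, and 6 had a log2 fold change above 0. Adamts10, which acts on fibrillin microfibrils, had 54.8, 88.4 and 37.6 CPM in shIGF2BP1 libraries and 43.8, 65.1 and 22.3 CPM in shNT libraries. Adamts14, a procollagen N-proteinase, had 27.2, 60.8 and 46.9 CPM in shIGF2BP1 libraries and 33.9, 65.9 and 58.5 CPM in shNT libraries. Replicate 2 was the highest library of each group for both genes, the groups overlapped, and the log2 fold changes were 0.46 ± 0.39 and -0.23 ± 0.32 (edgeR adjusted p = 0.864 and 0.926). The procollagen N-proteinases Adamts2 and Adamts3 had 0 counts, so Adamts14 was the only one of the class detected here. Adamts4, an enzyme that cleaves aggrecan and related proteoglycans, had 14.6, 21.3 and 14.5 CPM in shIGF2BP1 libraries and 18, 15.4 and 8.74 CPM in shNT libraries (log2 fold change 0.26 ± 0.31, edgeR adjusted p = 0.91). Adamts12, which cleaves the cartilage matrix protein COMP, had 7.32, 7.43 and 13.7 CPM in shIGF2BP1 libraries and 6.2, 19.2 and 15.4 CPM in shNT libraries (log2 fold change -0.52 ± 0.42, edgeR adjusted p = 0.856). The other aggrecan-cleaving enzymes were rarer. Adamts5 had 2.89 to 4.96 CPM in shIGF2BP1 and 2.54 to 3.54 CPM in shNT libraries, and Adamts1 22, 35 and 4 counts in shIGF2BP1 and 11, 3 and 6 counts in shNT libraries. Adamts1 had the largest log2 fold change above 0 of the tested members, 1.64 ± 0.80, on these few counts and with overlapping groups (edgeR adjusted p = 0.733). Adamts6 ran from 5.83 to 7.52 CPM in shIGF2BP1 and from 2.06 to 8.54 CPM in shNT libraries, and Adamts7 from 3.43 to 5.82 and from 0.968 to 3.96 CPM.

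Of the Adamtsl proteins, Adamtsl4, a fibrillin-binding protein of the lens zonule, had 38.8, 55.3 and 39.5 CPM in shIGF2BP1 libraries and 51.2, 83.7 and 47.0 CPM in shNT libraries. Adamtsl5 had 78.9, 126 and 56.0 CPM in shIGF2BP1 libraries and 108, 52.9 and 70.3 CPM in shNT libraries. Both overlapped between groups, with log2 fold changes of -0.44 ± 0.26 and 0.17 ± 0.33 (edgeR adjusted p = 0.782 and 0.943). Adamtsl5 exceeded every Adamts protease in CPM per kilobase, at 18.4 in shIGF2BP1 and 16.3 in shNT libraries, against 8.65 and 10.2 for Adamts14.

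Lysyl oxidase RNA came from Loxl3 and Loxl4, while Lox, Loxl1 and Loxl2 had 1, 3 and 9 counts over all libraries. Loxl3 had 24.7, 24.6 and 25.7 CPM in shIGF2BP1 libraries and 29.0, 30.5 and 31.6 CPM in shNT libraries. The 3 shIGF2BP1 libraries lay close together and below all shNT libraries. The difference was small, a log2 fold change of -0.28 ± 0.20 (edgeR p = 0.187, adjusted p = 0.831; two-sided exact permutation p = 0.1). The edgeR model shares its estimate of spread across genes, and the SD of Loxl3 over 3 libraries was 0.609 CPM in shIGF2BP1 and 1.3 CPM in shNT. Loxl4 had 20.3, 11.8 and 19.1 CPM in shIGF2BP1 libraries and 10.4, 15.4 and 33.2 CPM in shNT libraries (log2 fold change -0.21 ± 0.40, edgeR adjusted p = 0.943). Its highest value was in shNT replicate 3, and its groups overlapped.

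Several of these values turned on single libraries. Leaving out shIGF2BP1 replicate 2 turned the sign of 3 members (Adamtsl5, Loxl4 and Mmp23), leaving out shNT replicate 1 turned 2, and each of the other 4 libraries turned 1. The median over the members moved most without shNT replicate 3. That library was the highest of the 6 for 8 of 27 members and the lowest for 6, near the 24.5% and 23.6% of all genes for which it was. Without it the median log2 fold change over the members was -0.03, against -0.23 with all libraries. Without it Thbs1 had a log2 fold change of -0.02, Mmp28 -0.03 and Loxl4 0.40. The Thbs2 value ran from -1.23 to -0.88 when any library was left out, with edgeR p from 0.000354 to 0.00628 and adjusted p from 0.208 to 0.9998. Mmp15 ran from 0.83 to 1.31, with edgeR p from 0.0147 to 0.104. Mmp23 turned to -0.11 without shIGF2BP1 replicate 2, and Mmp3 to -1.16 without shIGF2BP1 replicate 3.

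**Figure D4:**
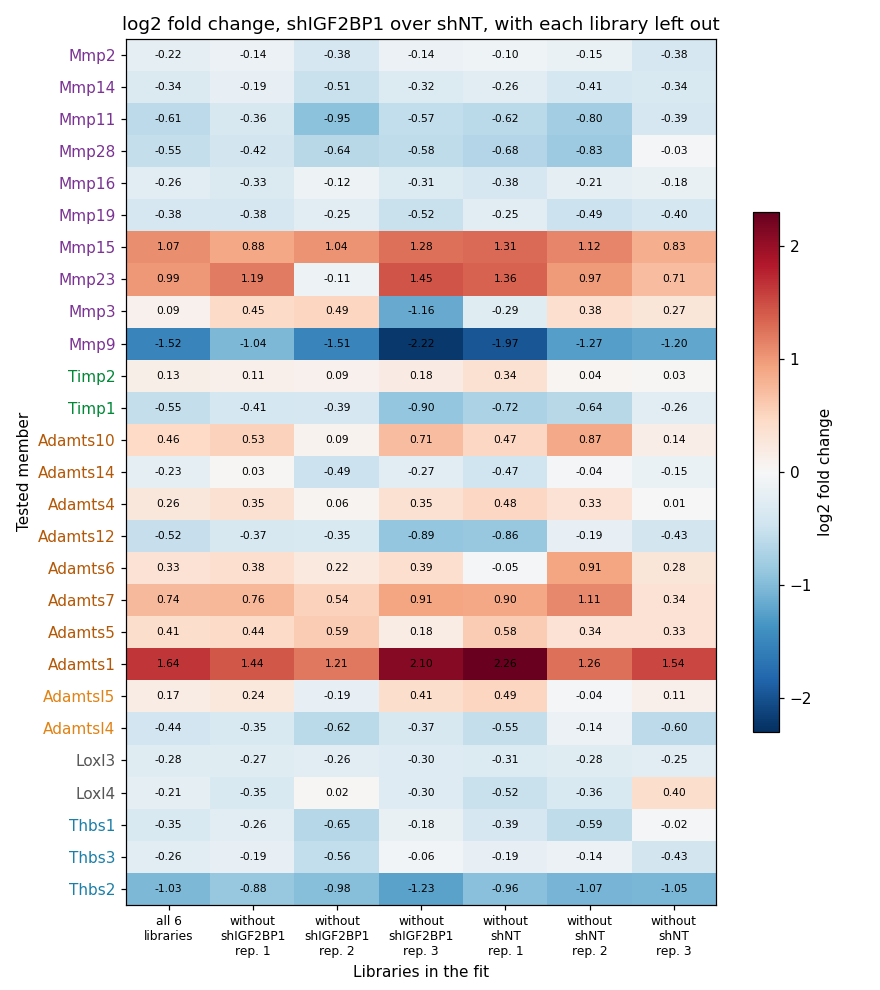
Log2 fold change (colour and number, shIGF2BP1 over shNT) of each tested member with all 6 libraries and with each library left out in turn. Thbs2 stays between -1.23 and -0.88 and Mmp15 between 0.83 and 1.31 across the columns, while Loxl4 reaches 0.40 without shNT replicate 3.

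Genes that work with these families, in lists taken from general knowledge, gave 0 calls at an edgeR adjusted p under 0.05, and the shares at an unadjusted p under 0.05 are set against 3.17% of all genes higher and 3.99% lower. In the plasminogen activator system, the protease cascade that also activates metalloproteinases, 0 of 8 tested genes passed an unadjusted p of 0.05. The activator Plau had 26.4 ± 12.7 CPM in shIGF2BP1 and 14.6 ± 7.56 CPM in shNT libraries (SD, n = 3 each). The counts were likewise 0 of 6 for membrane ADAM sheddases, where Adam9 had 105 ± 25.1 CPM in shIGF2BP1 and 132 ± 16.1 CPM in shNT libraries and Adam8 1.57 ± 1.02 and 0.746 ± 0.38 CPM. They were 0 of 6 for procollagen processing enzymes and convertases, with Pcsk7 at 12.6 ± 2.31 CPM in shIGF2BP1 and 15.5 ± 5.34 CPM in shNT libraries and Pcolce2 at 21.2 ± 6.07 and 18 ± 3.5 CPM. They were 0 of 11 for cathepsins and other proteases with their inhibitors, with the collagen-degrading Ctsk at 61.3 ± 14.9 CPM in shIGF2BP1 and 81.7 ± 8.97 CPM in shNT libraries and Serpinf1 at 407 ± 70.3 and 514 ± 99.3 CPM. They were 0 of 6 for other protease modulators, with Reck, a membrane inhibitor of metalloproteinases, at 14.4 ± 3.04 CPM in shIGF2BP1 and 11.2 ± 2.15 CPM in shNT libraries and Sparc at 389 ± 251 and 579.9 ± 249 CPM.

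Substrates and receptors showed a few differences at the unadjusted level. Of 10 tested substrates 1 was higher and 1 lower: the microfibril protein Fbn1 had 11.9 ± 1.35 CPM in shIGF2BP1 and 4.99 ± 3.57 CPM in shNT libraries, without overlap (edgeR adjusted p = 0.666). Fibronectin, Fn1, had 1590.1 ± 481 CPM in shIGF2BP1 and 2962 ± 1066 CPM in shNT libraries, which overlapped (edgeR adjusted p = 0.682). Of 10 tested neighbours and receptors of thrombospondins 2 were higher. Cd36, a receptor of Thbs1 and Thbs2, had 141 ± 24.3 CPM in shIGF2BP1 and 96.1 ± 22 CPM in shNT libraries, and the integrin subunit Itgb3 60.0 ± 11.6 and 31.9 ± 13.6 CPM (SD, n = 3 each). Their edgeR adjusted p-values were 0.684 and 0.62. Of 15 genes of TGF-beta ligands, latency and response, 1 was higher, Ccn2 at 1.97 ± 0.658 CPM in shIGF2BP1 and 0.679 ± 0.282 CPM in shNT libraries, and 1 lower, the latency protein Ltbp1 at 139 ± 64.7 and 304 ± 105 CPM. Their edgeR adjusted p-values were 0.606 and 0.524.

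The AP-1, Ets and related factors known to act on many Mmp promoters had 13 of 14 log2 fold changes below 0, with a median of -0.55, against 51.5% of all genes below 0, and 4 of 14 were lower at an unadjusted p under 0.05, namely Etv1, Fosl1, Fosl2 and Ets2. These counts rested largely on shNT replicate 3, which was the highest library for 12 of the 14. Without it 9 of 14 lay below 0, against 49.8% of all genes, the median was -0.08 and only Etv1 of the 14 was lower at an unadjusted p under 0.05. With any other library left out, 10 to 13 lay below 0 and 2 to 7 were lower at that p. The 2 came without shIGF2BP1 replicate 1, where 433 of 13716 genes passed that p in either direction. The 7 came without shNT replicate 2, where 1177 of 13703 genes did. Without shNT replicate 1, 5 were lower and 1833 of 13790 genes passed. Etv1 had 0, 2 and 3 counts in shIGF2BP1 and 163, 102 and 59 counts in shNT libraries (edgeR adjusted p = 0.0648). Fosl1, an AP-1 subunit, had 484, 1384 and 1104 counts in shIGF2BP1 and 1579, 1149 and 9246 counts in shNT libraries (edgeR adjusted p = 0.616). The part of that library's high levels of these factors in the values of the members was not tested.

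Reads from overlapping genes limit some of these values, because the kit keeps strand but the strand setting of the counting is not given in the sources used here. In the annotation, 8 of 27 tested members share exon bases with a gene on the other strand. The widest overlap was 789 bases (22.3% of the exon length) of Mmp19 with Tmem198b, followed by 466 bases (12%) of Mmp28 with 1700020L24Rik and 535 bases (11.6%) of Loxl3 with Htra2. Htra2 had 16281 counts over the 6 libraries, and Loxl3 5164. Thbs2 and Mmp15 share no exon base with another annotated gene.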

How the data were processed

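Stranded poly-A libraries were read in pairs of 53 cycles, per the labels' protocols. Tools listed in the submitters' processing notes are HISAT2 2.1.0 and HTSeq, with the build GRCm38. The sources used here do not give the annotation release or the strand setting. The deposited table gives raw read counts per gene, with 1 column per library. Symbols, coordinates and exon lengths came from GENCODE M21 on GRCm38, which matched 42548 of 43629 IDs, the rest holding 0.111% of reads. Spike-in rows (92) held 0 counts and were left out.

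Counts were tested with edgeR 4.0.16 in R 4.3.3 (TMM, filterByExpr at a minimum count of 10 and total of 15, robust quasi-likelihood F test, two-sided, no covariates) over 13445 genes, with Benjamini-Hochberg adjustment and a threshold of 0.05. CPM used TMM factors, and 3 counts correspond to 0.0851 to 0.114 CPM in a library. No 2 libraries agreed within sampling noise (chi-square per gene of 46.8 to 251). The exact permutation tests used log2(CPM + 0.5) for genes and log2 ratios without a pseudocount.

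Members and lists were chosen with earlier results of these data known. Named are Igf2bp1, every tested member (each library's CPM at an unadjusted p under 0.05, a mean CPM of 10 or more or the highest level of a family), all untested members, and up to 2 tested genes with the smallest p per pathway list. Fosl2, Ets2, Cd68 and marker genes were added after their values were seen. A gene that the rule names in the plasminogen list is not reported here. Alternatives were RLE factors, library size only, no filter, a mean CPM filter of 5, the replicate number as a block, DESeq2 1.42.0, limma-voom (limma 3.58.1), a stricter threshold of 0.01, omission of each library in turn, and the longest transcript as length. Leaving out libraries for the AP-1, Ets and Runx list was chosen after seeing the data.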

Additional observations from a re-analysis of the deposited data

How the results depend on the processing

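The count of 0 members called stayed at 0 with RLE factors, library size only, the replicate block, the mean CPM filter of 5, limma-voom, an adjusted p of 0.01 and without each library. It was 1, Thbs2, with DESeq2 (adjusted p = 0.0159) and with no filter (edgeR adjusted p = 0.00876). The 2 of 27 members at an unadjusted p under 0.05 became 7 of 41 with no filter and 1 of 20 with the mean CPM filter (which removes Mmp15 and other low members). They became 5 of 27 with the replicate block (Thbs2, Mmp15, Timp1, Mmp9 and Adamts10), and 1 to 6 of 27 or 28 when a library was left out. Thbs2 was among them in all of these fits. Over all genes, 962 of 13445 passed that p in the main fit and 1101 of 13445 with the replicate block. The counts were 1638 of 21088 with no filter and 661 of 10480 with the mean CPM filter. With a library left out they ran from 433 of 13716 (without shIGF2BP1 replicate 1, 1 of 28 members) to 1833 of 13790 (without shNT replicate 1, 6 of 28 members). Without shIGF2BP1 replicate 3, 941 of 13823 genes and 6 of 27 members passed. The members' share thus lay above that of all genes with no filter, with the replicate block and without either of these last 2 libraries. These are small counts, and the set was not tested. Over all genes edgeR called 3, against 82 with DESeq2, 138 with no filter, 1 with limma-voom or the mean CPM filter and 18 with the replicate block. Deviations of same-numbered libraries correlated at 0.19, -0.094 and 0.28 for replicates 1, 2 and 3, and shIGF2BP1 replicate 2 correlated best with shNT replicate 1 (0.22). With 3 libraries per group, these correlations cannot decide whether the numbers pair the samples. The median log2 fold change of the members ran from -0.27 to -0.029 when a library was left out, the highest without shNT replicate 3.

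No direction turned in 21 of 27 members. The sign turned for Adamts14 (0.030 without shIGF2BP1 replicate 1), Adamts6 (-0.045 without shNT replicate 1), Adamtsl5 (-0.19 without shIGF2BP1 replicate 2 and -0.039 without shNT replicate 2), Loxl4 (0.019 without shIGF2BP1 replicate 2 and 0.40 without shNT replicate 3) and Mmp23 (-0.11 without shIGF2BP1 replicate 2). Mmp3 turned to -0.14 under blocking by replicate (replicate block), -0.21 in limma-voom, -1.16 without shIGF2BP1 replicate 3 and -0.29 without shNT replicate 1. With a library left out, the values ran from -0.49 to 0.030 for Adamts14, -0.045 to 0.91 for Adamts6, -0.19 to 0.49 for Adamtsl5, -0.52 to 0.40 for Loxl4, -0.11 to 1.45 for Mmp23 and -1.16 to 0.49 for Mmp3. None of these was called, and the cause was not tested. With the longest transcript as length, 5 of 27 levels moved by more than 1 SD, by up to 2.00 times. Depth limits Adamts1, Mmp9, Timp3 and the members with few counts.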
